A study of Mus musculus with 6 samples.

Results

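The genes described here are 9 that belong to the contractile apparatus of smooth muscle or to the mural cells that wrap blood vessels: Acta2, Tagln, Cnn1, Cald1, Lmod1, Myh11 and Myl9, which build or regulate the actin and myosin filaments, with Cspg4 and Bvht. All 9 had a row among the 10189 genes of the deposited table. They were chosen by their values in miR-34a KO against wild-type cells in the same 6 libraries used here, so those differences are a description, are given without a test, and support nothing. The cells were primary chondrocytes, the cells that form cartilage, profiled by total RNA-seq with 3 samples of each genotype.

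The KO mice were homozygous for a global deletion of the microRNA gene Mir34a on a C57BL/6 background and were bred from heterozygous parents. The controls were wild-type C57BL/6 mice, and the labels give the allele name Mir34atm1.2 Mrl in the model field of both genotypes. All mice were 5 weeks old. Articular cartilage of knees and hips was pooled and digested with 3 mg/ml collagenase overnight, and the cells grew for about 1 week in medium with 10% serum. The deletion is present in every cell type of the animal, and separate animals or cultures are not stated for the 3 samples per genotype. All p-values below therefore measure only how far these samples spread, and that spread may be technical. Mir34a has no row among the 10189 genes, so the genotype could not be checked on its target.

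Values are TMM-normalized CPM, that is read counts scaled to an effective library size, from which whole reads were recovered. The libraries held 989217 to 5266617 reads. In WT 1, 78.5% of reads lay on Rn45s, Lars2 and Mir6236, against 3.96% to 19.3% in the other 5 libraries, and without these 3 genes the libraries held 947081 to 1772185 reads. On the second principal component KO 2 lay away from the other 5 libraries, at −56.5 against 4.74 to 16.7. One read was worth 0.382 to 0.762 CPM, so a gene at 10 CPM rested on few reads. Chondrocyte genes were present in every library: Col2a1, the main cartilage collagen, lay at 1985, 1159 and 1361 CPM in the KO libraries and at 1267, 1094 and 801 CPM in the wild-type libraries. Macrophage genes were present too, with Lyz2 at 594, 12165 and 1757 CPM in KO and 4139, 3326 and 3649 CPM in wild type.

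Smooth muscle contracts when calcium signals switch on myosin light chain kinase (Mylk), which phosphorylates the regulatory light chain so that myosin heads can pull on actin filaments. Many of the genes are switched on by serum response factor (Srf) with its partners myocardin (Myocd) or the myocardin-related factors (listed under the older symbols Mkl1 and Mkl2), through a DNA element called the CArG box. Expression of these genes is not limited to muscle: cultured fibroblasts and chondrocytes that spread on plastic can make Acta2 and Tagln, and Acta2 is the usual marker of myofibroblasts.

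The thin-filament genes come first. Acta2, the smooth muscle alpha-actin (gene ID 11475, mm10 chr19:34241090-34255590, minus strand), had 59.9, 193 and 84.4 CPM in KO libraries 1 to 3, against 330, 395 and 226 CPM in wild-type libraries 1 to 3 (the order kept below). All KO libraries lay below all wild-type libraries, and KO 2 was the highest of the KO. The means were 112 ± 70.6 CPM in KO and 317 ± 84.9 CPM in wild type (SD, n = 3 each), a log2 fold change of −1.63 ± 0.40 (SE) on log2(CPM + 0.5). In bulk samples such as these, fewer cells of a type and less RNA per cell cannot be told apart.

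Tagln, the actin-bundling protein transgelin (SM22), is encoded at chr9:45929619-45936058 (minus strand; gene ID 21345). It had 65.3, 161 and 113 CPM in KO, against 180, 225 and 181 CPM in wild type. The groups did not overlap, and the log2 fold change was −0.87 ± 0.31. Of the 1988 exonic bases of Tagln, 1349 lie opposite exons of Pcsk7 and Gm48529 on the other strand. Whether the counting used strand is not stated, so Tagln reads cannot be told apart from those of its antisense partners. Pcsk7 itself had 35.1, 46.1 and 41.0 CPM in KO and 44.0, 74.7 and 59.2 CPM in wild type, below Tagln in every library. The other 8 genes have no exon opposite another gene's exon in the annotation used.

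Cnn1, calponin 1, which binds actin and restrains the myosin ATPase (chr9:22099216-22109630, plus strand; gene ID 12797), showed the lowest log2 fold change of the 9, −1.93 ± 0.43. It had 8.40, 12.7 and 4.28 CPM in KO, which are 22, 26 and 7 reads, against 35.2, 32.8 and 25.8 CPM in wild type, which are 56, 43 and 44 reads. Each KO library lay below each wild-type library. The means were 8.47 ± 4.23 CPM in KO and 31.2 ± 4.87 CPM in wild type, 3.69 times higher in wild type.

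Cald1, caldesmon 1, another actin-binding inhibitor of contraction with both smooth muscle and non-muscle forms (chr6:34598500-34775473, plus strand; gene ID 109624), differed least. It had 456, 356 and 501 CPM in KO and 522, 463 and 537 CPM in wild type. The groups overlapped, and KO 2 was here the lowest library. The log2 fold change was −0.23 ± 0.19, not far beyond its own error.

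Lmod1, leiomodin 1, which starts new actin filaments in smooth muscle (chr1:135324807-135368065, plus strand; gene ID 93689), had 5.72, 23.5 and 9.18 CPM in KO, against 44.0, 29.0 and 21.7 CPM in wild type. KO 2 lay 1.82 CPM above WT 3, so the groups overlapped by that library alone. The log2 fold change was −1.44 ± 0.51.

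The thick filament was measured through its heavy and light chains. Myh11, the smooth muscle myosin heavy chain and the strictest marker of differentiated smooth muscle (chr16:14194535-14291372, minus strand; gene ID 17880), had 5.34, 5.88 and 7.95 CPM in KO, against 8.80, 16.8 and 42.2 CPM in wild type. KO libraries lay below the wild-type ones by a narrow margin, KO 3 at 13 reads and WT 1 at 14 reads. The wild-type mean of 22.6 ± 17.5 CPM rested largely on WT 3, with 72 reads, and the log2 fold change of −1.48 ± 0.58 was −0.90 without that library.

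Myl9, the regulatory light chain that Mylk phosphorylates (chr2:156775420-156781658, plus strand; gene ID 98932), was the most uneven of the 9 among KO libraries. It had 9.92, 81.3 and 21.4 CPM in KO, against 98.0, 103 and 64.5 CPM in wild type. KO 2 lay 16.8 CPM above WT 3, whereas KO 1 and KO 3 lay below every wild-type library. The KO mean of 37.6 ± 38.3 CPM had an SD as large as itself, against 88.4 ± 20.9 CPM in wild type. The log2 fold change of −1.72 ± 0.62 ranged between −1.04 without KO 1 and −2.53 without KO 2. Acta2 and Myl9 each have close relatives among the actins and the light chains Myl12a and Myl12b, and how the authors' counting assigned reads that fit several of them is not given.

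Cspg4 and Bvht are not parts of the filaments. Cspg4, the proteoglycan NG2, marks pericytes but is also made by chondrocytes and other mesenchymal cells (chr9:56865033-56899870, plus strand; gene ID 121021). It was the only gene of the 9 with a higher mean in KO, with 38.5, 25.5 and 58.1 CPM in KO against 20.1, 17.5 and 15.2 CPM in wild type. No KO library overlapped a wild-type library, and the log2 fold change was 1.12 ± 0.34. It rested on 52 to 101 reads per KO library and 23 to 32 reads per wild-type library.

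Bvht (Braveheart) is a long non-coding RNA known in mouse for its part in the commitment of embryonic stem cells to the cardiac lineage. It lies at chr18:61639542-61647472 on the plus strand (gene ID 545261), 352 bases from Mir145a and 2152 bases from Carmn, both on the other strand. Mir145a encodes a microRNA that promotes the smooth muscle phenotype, and neither neighbour has a row in the table analysed here. Bvht had 31.7, 44.1 and 45.9 CPM in KO, against 108, 165 and 107 CPM in wild type. Its KO libraries lay close together (SD 7.74 CPM) and below all wild-type libraries, and the log2 fold change was −1.62 ± 0.25.

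**Figure D1:**
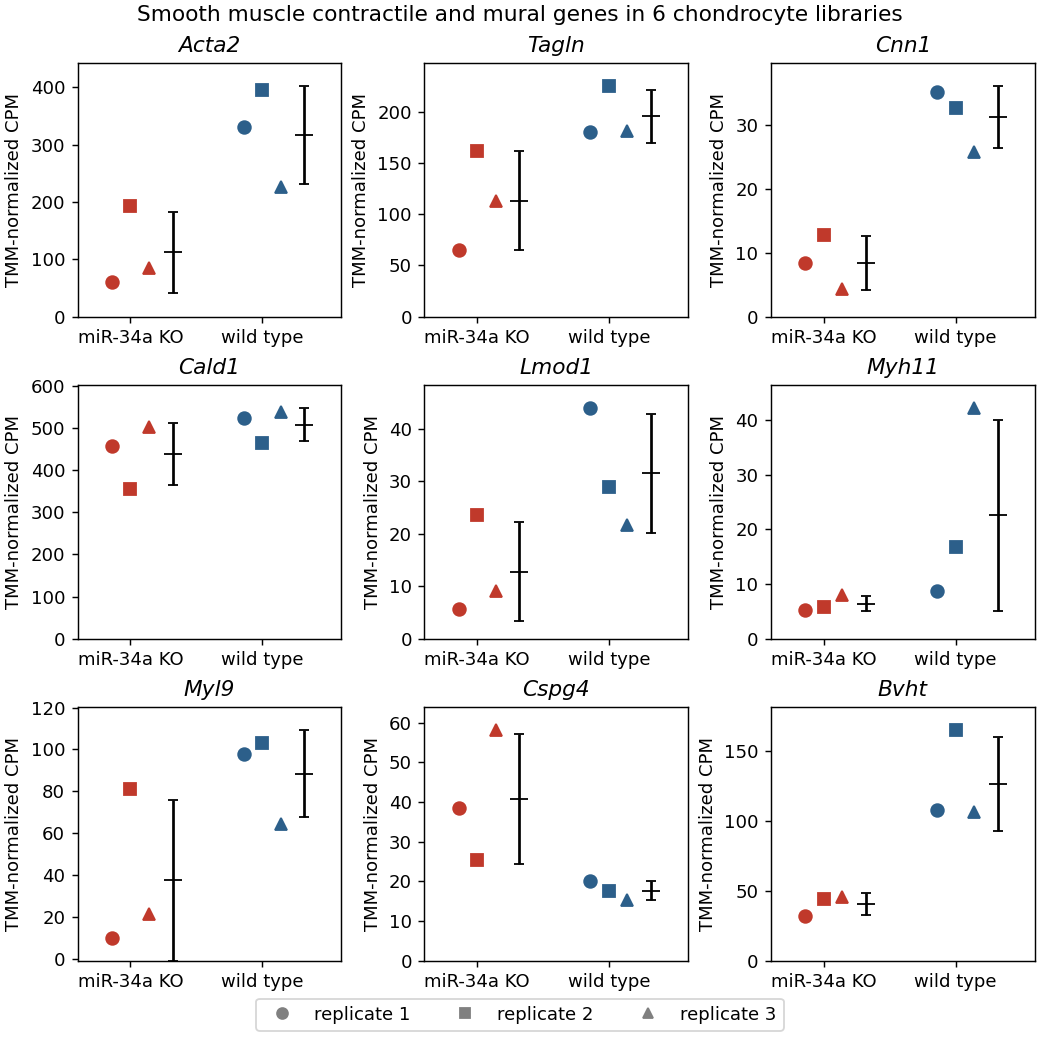
Each panel plots 1 gene in TMM-normalized CPM, with miR-34a KO on the left and wild type on the right. Points are libraries, their shape is the replicate number, and the bar beside them is the mean ± SD (n = 3). Acta2, Tagln, Cnn1, Myh11 and Bvht lay lower in KO with no overlap, Cspg4 lay higher with no overlap, and the replicate 2 point of KO was the highest KO value for Acta2, Tagln, Cnn1, Lmod1 and Myl9.

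The mean on the log2 scale was lower in KO for 8 of the 9 genes, where 48.6% of all 10189 genes had a lower mean. All KO libraries lay below all wild-type libraries for 5 genes, against 9.57% of all genes, and above them for 1 gene, against 8.82% of all genes. Since the 9 were picked from this contrast, nothing is read from these counts. The median log2 fold change was −1.48 over the 9 genes and 0.02 over all genes, whose central 90% lay between −0.94 and 1.32. In the limma fit over all genes, called at an adjusted p below 0.05, 0.00981% of genes passed, 1 gene in all, and none of the 9 was that gene. It was Invs, a ciliary protein gene that belongs to no list used here, with 50.1 ± 3.90 CPM in KO and 220.1 ± 21.7 CPM in wild type (limma adjusted p = 0.00873). That call was lost with the replicate block (limma adjusted p = 0.123), without WT 1 (limma adjusted p = 0.16) and without WT 1 and KO 2 together (limma adjusted p = 0.0787). DESeq2 on the recovered reads called 2.0% of its tested genes lower, Acta2 and Bvht among them. Limma without KO 2 called 0.245% of genes lower, among them Acta2 and Myl9. These calls rest on the same values that chose the genes, and nothing is read from them.

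KO 2 differed from the other KO libraries in a shared way. Of the 7 contractile genes, 5 were highest in KO 2 among the KO libraries, and 5 were lowest of all 6 libraries in KO 1. KO 2 exceeded the higher of KO 1 and KO 3 by 3.80 times for Myl9, 2.56 times for Lmod1 and 2.28 times for Acta2. For Cnn1 and Tagln that ratio was 1.52 and 1.42. Without KO 2 the KO mean was 15.7 CPM for Myl9, 7.45 CPM for Lmod1 and 72.2 CPM for Acta2. Myh11, Cald1, Cspg4 and Bvht did not share this pattern. Each sample title carries a code, and that of KO 2 has the form of the wild-type codes, unlike those of KO 1 and KO 3. What the codes stand for is not stated, and a link to the values of KO 2 was not tested.

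How each gene tracked the other contractile genes is given as a description, over 6 libraries that share depth and genotype. Pearson's r with the mean of the other contractile genes was 0.95 for Bvht, 0.93 for Acta2, 0.90 for Tagln, 0.87 for Lmod1, 0.85 for Cnn1 and Myl9, 0.60 for Myh11, 0.17 for Cald1 and −0.87 for Cspg4. After each genotype was centred on its own mean, r was 0.93 for Tagln, 0.91 for Myl9, 0.80 for Acta2, 0.75 for Lmod1 and 0.55 for Bvht. It was 0.16 for Cnn1, −0.26 for Myh11, −0.45 for Cspg4 and −0.80 for Cald1. Among the KO libraries Acta2, Tagln, Myl9 and Lmod1 thus varied together, each lowest in KO 1 and highest in KO 2. In wild type Acta2, Tagln and Myl9 were highest in WT 2 but Lmod1 in WT 1. The centred r pools both genotypes, and the KO 2 values weigh heavily in so few libraries.

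Promoter sequence is shown for 4 of the genes to set this pattern beside the Srf element: Acta2 and Myl9, whose windows hold a match, Cnn1, which had the lowest fold change, and Cspg4, the gene that was higher. Windows are 250 bases before to 50 after a start, from RefSeq on GRCm38.p6, and were found for 6 of the 9 genes (7 windows), namely Acta2, Myl9, Cnn1, Cspg4, Lmod1 and Cald1. Capitals mark a CArG box (CC, a run of A or T, then GG) or a CArG-like element in which 1 base of the run is C or G. The looser search was added after the strict one had been seen. Each sequence runs 5′ to 3′ on the strand of its gene.
Acta2, chr19:34255324-34255623, minus strand: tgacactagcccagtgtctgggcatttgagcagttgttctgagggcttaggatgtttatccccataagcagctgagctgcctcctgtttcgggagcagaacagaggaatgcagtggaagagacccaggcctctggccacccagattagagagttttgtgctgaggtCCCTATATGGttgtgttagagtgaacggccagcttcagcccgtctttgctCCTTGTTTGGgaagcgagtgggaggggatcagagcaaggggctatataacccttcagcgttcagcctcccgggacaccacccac
Myl9, chr2:156775214-156775513, plus strand: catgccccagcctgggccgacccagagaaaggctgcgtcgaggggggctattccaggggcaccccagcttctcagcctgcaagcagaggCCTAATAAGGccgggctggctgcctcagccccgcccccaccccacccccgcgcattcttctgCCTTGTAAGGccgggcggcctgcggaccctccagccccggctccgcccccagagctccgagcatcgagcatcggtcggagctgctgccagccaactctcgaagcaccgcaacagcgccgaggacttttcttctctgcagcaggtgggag
Cnn1, chr9:22099003-22099302, plus strand: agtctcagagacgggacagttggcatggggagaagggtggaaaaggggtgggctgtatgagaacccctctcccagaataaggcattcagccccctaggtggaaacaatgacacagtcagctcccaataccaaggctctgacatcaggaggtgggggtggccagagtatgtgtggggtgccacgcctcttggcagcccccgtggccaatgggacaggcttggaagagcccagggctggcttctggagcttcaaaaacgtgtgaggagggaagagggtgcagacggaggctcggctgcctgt
Cspg4, chr9:56864854-56865153, plus strand: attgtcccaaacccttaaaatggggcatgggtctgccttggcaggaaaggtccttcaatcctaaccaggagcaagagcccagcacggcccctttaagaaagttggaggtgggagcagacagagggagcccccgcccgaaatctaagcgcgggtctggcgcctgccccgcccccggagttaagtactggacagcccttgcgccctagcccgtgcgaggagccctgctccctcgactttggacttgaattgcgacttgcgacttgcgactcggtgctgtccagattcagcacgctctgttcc

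Myl9 held 1 CArG box, at bases −161 to −152 from the start, and 1 CArG-like element at −99 to −90. Acta2 held no strict box and 2 CArG-like elements, at −84 to −75 and −34 to −25. The windows of Cnn1, Cspg4, Lmod1 and Cald1 held neither. Of all 32851 promoter windows, searched on both strands, 1.63% held a CArG box, 8.50% a CArG-like element, and 0.679% held 2 or more CArG-like elements. Among related genes, a CArG box was found in 1 of 9 other smooth muscle contractile genes with a window (Fhl1). It was found in 6 of 27 general actomyosin and focal adhesion genes: Actg1, Cnn2, Fermt2, Fhl2, Myl6 and Vcl. A gene can have several windows, so counts of genes are not on the scale of a share of windows. Counted by window, a CArG box stood in 1 of 12 windows of the other contractile genes and 7 of 36 of the general genes. A CArG-like element was found in 2 of the 9 (Hspb6 and Synm) and in 3 of the 27 (Lpp, Myl12a and Tpm3). The TEAD element CATTCC stood in the windows of Acta2, Lmod1 and Cald1 (14.7% of all windows) and the E-box CANNTG in all of the 6 genes but Cspg4 (72.3% of all windows). None of these matches overlapped another. A match is a description of letters, not of binding, and these windows leave out introns and distal enhancers.

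The microRNA deleted in KO is shown with the 2 matches to its seed found in the 3′ UTRs of these genes. Capitals mark bases 2 to 8, the seed, in the microRNA, and the complement of that seed in the transcripts.
miR-34a-5p: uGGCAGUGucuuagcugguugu
Lmod1 site: agagaagatggCACTGCCcagagcccatg
Tagln site: cccagagccacCACTGCCctggcccctgt

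The mature strand lies at chr4:150068473-150068494 (plus strand, RefSeq table on GRCm38.p6). The Lmod1 match starts at base 275 of a 3′ UTR of 1957 bases, and the Tagln match at base 169 of 752 bases. Matches were found in 2 of the 8 genes with an annotated 3′ UTR, and in 17.9% of 9343 genes of the table. Shorter matches, to bases 2 to 7 of the microRNA, were found in 5 of the 8 genes, Lmod1, Tagln, Cnn1, Cald1 and Cspg4, and in 35.4% of the 9343 genes. Whether loss of the microRNA acts through any of these matches was not tested.

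Per kilobase of merged exon, the level of the genes spanned a wide range. In KO cells the order of mean levels was Bvht (58.0 ± 11.1 CPM per kb), Tagln (56.9 ± 24.1), Acta2 (51.1 ± 32.1), Cald1 (36.3 ± 6.17), Myl9 (32.3 ± 33.0), Cspg4 (3.41 ± 1.38), Lmod1 (3.24 ± 2.39), Cnn1 (3.10 ± 1.55) and Myh11 (0.84 ± 0.18). Only Myl9 and Cspg4, and Cnn1 and Myh11, were neighbours in that order whose libraries did not overlap. In wild-type cells the order was Bvht (181 ± 47.9 CPM per kb), Acta2 (144 ± 38.7), Tagln (98.2 ± 12.9), Myl9 (76.1 ± 18.0), Cald1 (42.1 ± 3.24), Cnn1 (11.4 ± 1.78), Lmod1 (7.99 ± 2.88), Myh11 (2.97 ± 2.30) and Cspg4 (1.48 ± 0.20). There the neighbouring pairs Tagln and Myl9, Myl9 and Cald1, and Cald1 and Cnn1 did not overlap, and the other neighbours did. Acta2, Tagln, Myl9 and Cald1 thus made the upper level in both genotypes, and the smooth muscle genes Myh11, Lmod1 and Cnn1 the lower. The lengths come from GENCODE M21, and the annotation the authors counted on is not given, so a level per kb is approximate.

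Each smooth muscle protein has non-muscle relatives that most cells make, and the share of the smooth muscle form within its family does not depend on library scaling. The shares were computed after the gene values had been seen, and they use the same values of the smooth muscle genes. Myl9 made up 7.43%, 27.3% and 13.9% of the summed CPM of Myl9, Myl12a and Myl12b in KO, against 32.4%, 40.3% and 29.3% in wild type. In this share KO 2 lay below all wild-type libraries, although its Myl9 CPM did not. Myl12a with Myl12b were highest in KO 2, at 216 CPM, against 124 CPM in KO 1 and 132 CPM in KO 3. They summed to 204, 152 and 155 CPM in wild type. Myl9 itself had 81.3 CPM in KO 2, below WT 1 (98.0 CPM) and WT 2 (103 CPM) and above WT 3 (64.5 CPM). What lowered the share of KO 2 was not tested. Cnn1 made up 3.82% ± 2.52 of the calponins Cnn1, Cnn2 and Cnn3 in KO and 11.0% ± 0.988 in wild type, with no overlap.

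Acta2 made up 3.07%, 9.19% and 3.24% of Acta2, Actb, Actg1 and Actg2 in KO, against 9.88%, 12.8% and 8.55% in wild type. Here KO 2 lay above WT 3, unlike in CPM. Myh11 made up 0.862% ± 0.0387 of Myh11, Myh9 and Myh10 in KO and 2.82% ± 2.50 in wild type, and KO 1 (0.881%) overlapped WT 1 (0.879%). Tagln made up 71.2% ± 9.58 of Tagln and Tagln2 in KO and 80.2% ± 7.34 in wild type, with overlap. The summed relatives differed less than the smooth muscle forms: the other actins summed to 2105 ± 361 CPM in KO and 2708 ± 293 CPM in wild type, and Myl12a with Myl12b to 157 ± 51.1 CPM in KO and 171 ± 29.1 CPM in wild type. Cnn2 with Cnn3 summed to 230.2 ± 43.1 CPM in KO and 253 ± 22.0 CPM in wild type, and Myh9 with Myh10 to 734 ± 145 CPM in KO and 849 ± 142 CPM in wild type.

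**Figure D2:**
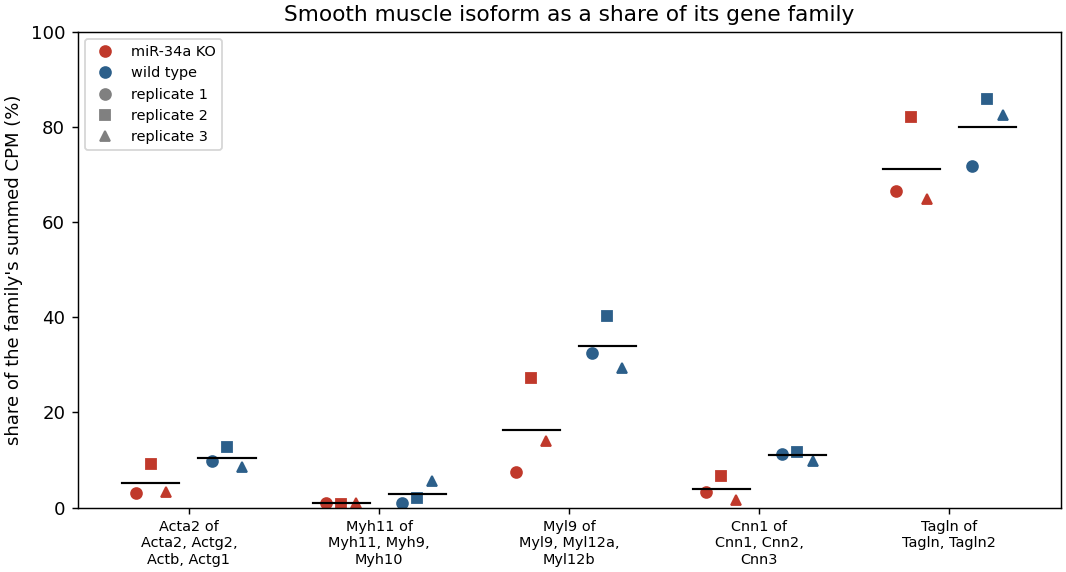
Share of the smooth muscle gene in the summed CPM of its family, in percent, with miR-34a KO left of wild type in each family. Points are libraries, their shape is the replicate number, and lines are means (n = 3). KO libraries lay below wild type without overlap for Myl9 (at most 27.3% against at least 29.3%) and Cnn1, and overlapped for Acta2, Myh11 and Tagln.

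Other genes of contraction were counted from lists and not picked for how they moved, although earlier results of these data were known. Of 10 measured other smooth muscle contractile genes, none passed limma (lowest adjusted p = 0.238). At an unadjusted p below 0.05, 4 of the 10 were lower in KO and 0 higher, where 6.4% of all genes were lower and 4.64% higher at that threshold. For 2 of the 10 all KO libraries lay below all wild-type libraries, against 9.57% of all genes. The median log2 fold change was −0.46 over the list and 0.02 over all genes. Tpm2, a tropomyosin of smooth muscle thin filaments, had 87.8, 74.5 and 86.3 CPM in KO, against 218, 173 and 137 CPM in wild type (log2 fold change −1.06 ± 0.22, limma adjusted p = 0.238). Mylk, the light chain kinase, had 28.6, 34.8 and 10.4 CPM in KO, against 84.8, 96.0 and 36.4 CPM in wild type (−1.59 ± 0.50, limma adjusted p = 0.311). In both genes the groups did not overlap, and KO 2 was not raised in Tpm2, unlike in Acta2. Of the exonic bases of Mylk, 772 lie opposite exons of E130310I04Rik and Gm21691.

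Actg2, the enteric smooth muscle gamma-actin, had 3, 17 and 0 reads in KO and 7, 27 and 33 reads in wild type, with overlapping groups. Csrp1, a LIM protein of smooth muscle, had 36.6, 64.7 and 43.4 CPM in KO and 80.4, 64.0 and 70.4 CPM in wild type, which also overlapped. Smtn (smoothelin) and Pgm5, 2 further genes of the differentiated smooth muscle cell, had log2 fold changes of 0.33 ± 0.32 and 0.86 ± 0.66, with overlap. The smooth muscle list was therefore not lower throughout. Des, Synpo2, Ldb3, Itga8, Ppp1r12b, Ppp1r14a, Aoc3 and Kcnmb1 have no row in the table analysed here.

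Of 33 general actomyosin and focal adhesion genes, none passed limma (lowest adjusted p = 0.238). At an unadjusted p below 0.05, 8 of the 33 were lower in KO and 0 higher, against 6.4% and 4.64% of all genes. The mean was lower in KO for 29 of the 33 (87.9%, against 48.6% of all genes), and 10 lay below wild type in all libraries (30.3%, against 9.57% of all genes). The shift of the list was small, with a median log2 fold change of −0.23, and these genes share libraries and are not independent. Nexn (nexilin, an actin filament protein) had 55.0, 49.5 and 63.6 CPM in KO, against 99.9, 130 and 113 CPM in wild type (−1.02 ± 0.21, limma adjusted p = 0.238). Csrp2, a LIM protein, had 19.5, 12.7 and 19.0 CPM in KO, against 40.2, 34.3 and 39.9 CPM in wild type (−1.16 ± 0.28, limma adjusted p = 0.273). Both were lower in every KO library, and in both KO 2 was the lowest library. Myh10, a non-muscle myosin heavy chain, had a log2 fold change of −0.84 ± 0.23, and Pdlim7, an adaptor of actin stress fibres, −1.52 ± 0.43. Actb, the main non-muscle actin, averaged 1797 ± 316 CPM in KO and 2336 ± 256 CPM in wild type.

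**Figure D3:**
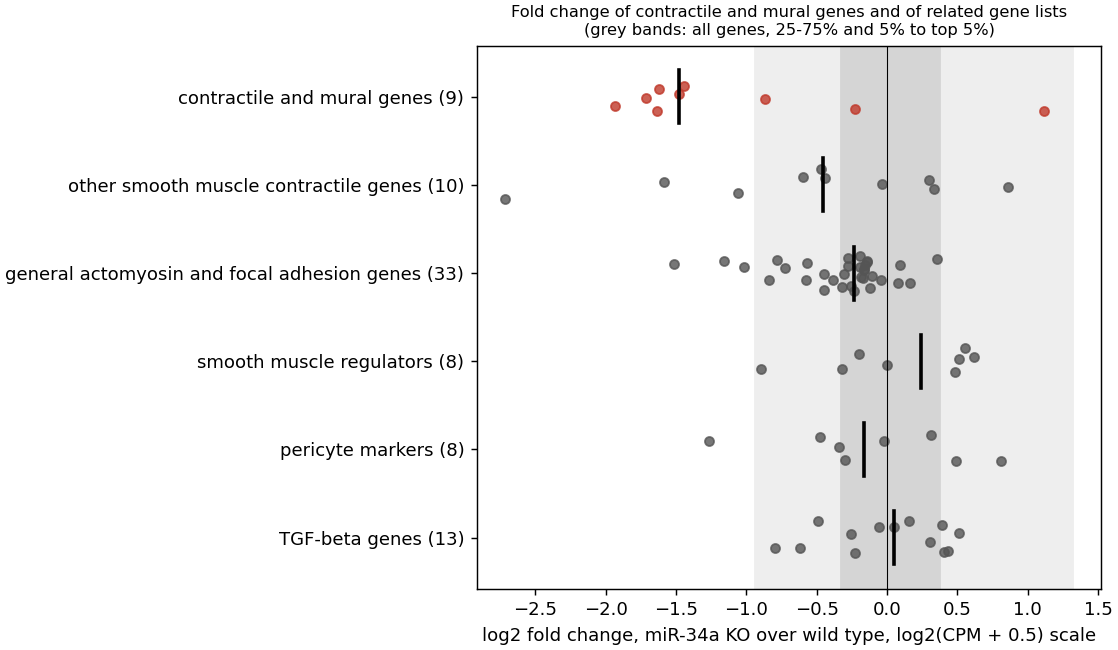
Log2 fold change of each gene (miR-34a KO over wild type, limma on log2(CPM + 0.5)) by list, with 1 point per gene, the number of genes in brackets and the list's median as a bar. The line at 0 marks no difference, and the grey bands hold the central part of all genes (light grey, −0.94 to 1.32; dark grey, −0.33 to 0.37). The contractile and mural genes, with a median of −1.48, were chosen on this contrast. The other contractile genes had a median of −0.46, the general actomyosin genes −0.23 and the regulators 0.24.

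As a list, the regulators of these genes showed no common direction. The list was not split by whether a regulator raises or lowers these genes, so its counts and median do not describe either kind. Of 8 measured regulators, 4 had a lower and 4 a higher mean in KO, none passed limma, and none reached an unadjusted p below 0.05 (lowest adjusted p = 0.493). The median log2 fold change was 0.24, and it was −0.060 without KO 2. Srf had 9.54, 16.2 and 15.3 CPM in KO and 8.17, 26.7 and 16.4 CPM in wild type. Mkl1 had 6.87, 15.7 and 3.06 CPM in KO and 20.1, 13.7 and 8.79 CPM in wild type, and Mkl2 had 14.1, 13.2 and 12.8 CPM in KO and 13.2, 8.38 and 6.45 CPM in wild type. Both myocardin-related factors were low in these libraries, and the groups overlapped for Srf, Mkl1 and Mkl2. Srf rested on 13 to 35 reads per library, Mkl1 on 5 to 32 and Mkl2 on 11 to 37, so small differences in them cannot be seen. Myocd, Gata6 and Elk1 have no row in the table.

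TGF-beta signalling, which raises Acta2 and Tagln in fibroblasts, was followed through 13 genes. None passed limma (lowest adjusted p = 0.281), 6 had a lower and 7 a higher mean in KO, and the median log2 fold change was 0.05. Tgfb2, a ligand, had 95.0, 106 and 80.7 CPM in KO, against 59.7, 66.3 and 70.4 CPM in wild type (0.51 ± 0.20). All KO libraries of Tgfb2 lay above all wild-type libraries.

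Other markers of mural cells were mixed. Of 8 measured pericyte markers, 5 had a lower and 3 a higher mean in KO, none passed limma (lowest adjusted p = 0.465), and the groups overlapped in all 8. Their summed level was 245 to 334 CPM in KO and 190 to 306 CPM in wild type. The median log2 fold change was −0.16 and changed sign when single libraries were left out: it was 0.08 without WT 1, 0.17 without WT 3 and 0.02 without KO 3. Pdgfrb, the PDGF receptor of pericytes and fibroblasts, had 90.8, 62.2 and 64.8 CPM in KO and 65.3, 16.8 and 60.4 CPM in wild type. Mcam, shared by pericytes and endothelium, had 4.20, 28.9 and 12.2 CPM in KO and 26.4, 35.0 and 25.2 CPM in wild type, and KO 2 was again the highest of the KO libraries. Rgs5, Abcc9, Kcnj8, Higd1b, Vtn and Heyl have no row in the table.

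Some markers of other cells varied between the KO libraries as the contractile genes did, and others did not. The endothelial markers Pecam1 and Cdh5 were at 0 reads in KO 1 and KO 3, where Acta2 and Myl9 were lowest, and lay at 30.4 and 13.2 CPM in KO 2. In WT 1, WT 2 and WT 3, Pecam1 had 5.03, 6.09 and 27.6 CPM and Cdh5 had 6.28, 13.7 and 6.45 CPM. Egfl7 had 1.14, 8.82 and 5.51 CPM in KO and 6.28, 3.05 and 14.7 CPM in wild type. Eng did not share this pattern, with 19.1, 21.1 and 17.7 CPM in KO and 17.6, 13.7 and 22.3 CPM in wild type. It had 50 reads in KO 1 and 29 reads in KO 3. Over the 4 endothelial markers measured, 3 had a lower and 1 a higher mean in KO, and the sum was 20.2 to 73.5 CPM in KO and 35.2 to 70.9 CPM in wild type. Of 14 macrophage markers, 12 had a lower and 2 a higher mean in KO on the log2 scale. Their sum was 1056 to 15435 CPM in KO and 5421 to 6317 CPM in wild type. For Lyz2, Adgre1 and Cd68 the log2 mean was lower in KO but the CPM mean was higher. Those CPM means were 4839 in KO against 3705 in wild type for Lyz2, 141 against 125 for Adgre1 and 124.4 against 124.0 for Cd68. The macrophage gene Ptprc had 41.2, 305 and 150 CPM in KO and 230, 213 and 176 CPM in wild type. The mean score of the list was lowest in KO 1 (−1.99) and above all wild-type libraries in KO 2 (1.00 against 0.01 to 0.61), whereas the contractile score of KO 2 (−0.01) lay below all wild-type libraries (0.60 to 0.74). Mrc1, the mannose receptor of macrophages, was the marker whose groups did not overlap: it had 63.7, 212 and 250 CPM in KO, against 447, 670 and 361 CPM in wild type (log2 fold change −1.66 ± 0.47, limma adjusted p = 0.283). The part of these cells in the levels of the contractile genes was not tested.

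Of 13 chondrocyte markers, 12 had a higher and 1 a lower mean in KO, 6 lay above wild type in all libraries (against 8.82% of all genes), and none passed limma (lowest adjusted p = 0.176). Acan, the cartilage proteoglycan aggrecan, had 312, 197 and 112 CPM in KO, against 75.4, 93.0 and 85.6 CPM in wild type. Sox9, the chondrocyte transcription factor, had 24.8, 15.2 and 15.3 CPM in KO, against 14.4, 8.38 and 11.7 CPM in wild type. The sum of the list was 3848 to 6943 CPM in KO and 2491 to 3836 CPM in wild type, highest in KO 1, where most of the contractile genes were lowest.

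The 12 measured fibroblast markers were mixed, 4 with a lower and 8 with a higher mean in KO and sums of 9701 to 14631 CPM in KO and 10122 to 13028 CPM in wild type; none passed limma (lowest adjusted p = 0.281). Postn, the matrix protein periostin of activated fibroblasts, had 49.6, 211 and 47.7 CPM in KO and 183, 343 and 346 CPM in wild type (log2 fold change −1.81 ± 0.53). KO 2 was its highest KO library, as for Acta2, and lay above WT 1. Col3a1, a fibrillar collagen, had 1981, 1573 and 2277 CPM in KO, against 4063, 2785 and 4346 CPM in wild type (−0.93 ± 0.26). Col1a1, the main collagen of bone and skin, had 251, 317 and 291 CPM in KO, against 415, 490 and 354 CPM in wild type (−0.54 ± 0.19). Col3a1 and Col1a1 lay below wild type in all KO libraries. Lum, the matrix proteoglycan lumican, lay above it, with 937, 550.2 and 650.2 CPM in KO against 443, 289 and 388 CPM in wild type (0.92 ± 0.25). Col1a2, a further fibrillar collagen gene, overlapped (0.19 ± 0.24). Over the 12 markers, 2 lay below wild type in all libraries (against 9.57% of all genes) and 3 above (against 8.82% of all genes). Of 14 skeletal muscle markers only Ttn (titin) has a row. It had 123, 167 and 165 CPM in KO, against 206, 230.1 and 207 CPM in wild type, with no overlap (−0.51 ± 0.19, limma adjusted p = 0.373). The part of the chondrocyte, fibroblast and muscle shares of the culture in the contractile genes was not tested.

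**Figure D4:**
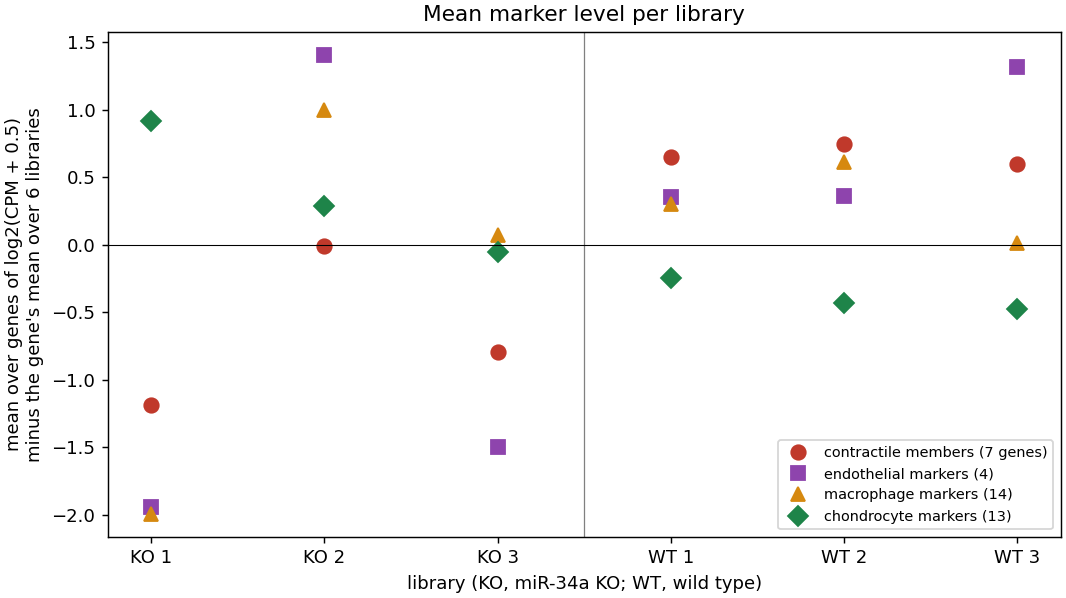
Mean over the genes of a list of log2(CPM + 0.5) minus each gene's mean over the 6 libraries, with miR-34a KO libraries left of wild type. Each symbol is 1 list in 1 library. The contractile genes lay at −1.19, −0.01 and −0.79 in KO and 0.65, 0.74 and 0.60 in wild type. The endothelial and macrophage markers were lowest in KO 1 and high in KO 2, and chondrocyte markers were highest in KO 1.

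By likeness to the mean standardized level of the contractile genes, over 6 libraries and among the 8687 genes with a mean of at least 10 CPM, the closest genes outside the set included Kansl1l, Gpr183, Ms4a4b, Nap1l1, Angpt2, Kif2a and Dtx3, with Pearson's r of 0.995 to 0.982. With 6 libraries and so many genes such values are a description only. Gpr183, an immune cell receptor, had 21.0, 32.8 and 28.8 CPM in KO, against 71.0, 68.6 and 72.7 CPM in wild type. Angpt2, the vascular ligand angiopoietin 2, had 43.5, 69.6 and 47.7 CPM in KO, against 125, 145 and 136 CPM in wild type. In both genes KO 2 was the highest of the KO libraries and no KO library reached the wild-type range. After each genotype was centred on its own mean, r was 0.864 to 0.974 over these 7 genes. Kansl1l and Kif2a have exons opposite those of other genes.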

How the data were processed

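Per its name, the deposited table holds a signal for each of 10189 genes, read counts that the authors turned into TMM-normalized CPM. The submitters' processing notes name cutadapt 1.18, HISAT2 2.1.0, StringTie 1.3.5, edgeR and the build mm10, without roles. Neither annotation nor strand setting is stated. All values (100%) equalled whole reads within 0.001. Every row held at least 7.35 CPM in its second-highest library.

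KO and wild type (n = 3 each) were compared with limma 3.58.1 with trend on log2(CPM + 0.5), two-sided, Benjamini-Hochberg adjusted over all genes, called below 0.05 (R 4.3.3). Recovered reads were tested with edgeR 4.0.16 (quasi-likelihood), DESeq2 1.42.0 and limma-voom. The procedure was run on simulated data, drawn separately for each gene without a shift shared within a library. That run therefore does not bear on differences such as those of KO 2. Genes, lists and named-gene rules (per list up to 4 genes of smallest p, plus defining markers) were chosen with earlier results of these data known. Smtn, Pgm5, Actb, Pcsk7, Adgre1, Cd68 and Col1a2 were named after their values were seen. Positions and lengths are from GENCODE M21 and promoter and microRNA sequences from RefSeq on GRCm38.p6, searched with Python 3.11.15. KO 3's column name differed from its sample title by 1 character. Of the genes the rule names, 2 are not reported here.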

Additional observations from a re-analysis of the deposited data

How the results depend on the processing

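The count of the 9 genes with a lower mean in KO was 8 under all 19 alternatives, and of 171 recomputed gene fold changes 0 reversed in sign. The number of the 9 genes called was 0, but 2 with DESeq2 on recovered reads (Acta2, adjusted p = 0.0173, and Bvht, adjusted p = 1e-04), and 0 to 2 with single libraries left out. The 2 without KO 2 were Acta2 (limma adjusted p = 0.0236) and Myl9 (limma adjusted p = 0.0366). Genes higher in KO over the whole table numbered 0, against 27 with DESeq2, 7 with limma without trend, 1 with robust empirical Bayes and 1 at an adjusted p below 0.1, and 0 to 7 with single libraries left out. Genes lower in KO numbered 1, against 81 with DESeq2, 2 with edgeR, 3 without trend, 2 with a pseudocount of 2, 3 with robust empirical Bayes, 2 without WT 1 and KO 2 together and 4 at an adjusted p below 0.1. With single libraries left out they numbered 0 (without WT 1) to 25 (without KO 2). With the replicate block 0 genes were lower, so Invs was not called there or without WT 1. Samples of like number deviated from their group means with correlations of 0.0325, 0.0819 and −0.0564. KO 2 was the only KO library to correlate best with its own number. With so few samples per group, such values cannot settle whether samples of like number share more than a number.

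The median log2 fold change of the 9 genes was −1.69 to −1.04 with single libraries left out. That of the regulators was −0.19 without WT 1 and KO 2 together and −0.060 to 0.34 with single libraries left out, and that of the pericyte markers was 0.10 and −0.37 to 0.17. The cause of these differences was not tested. Depth limits Cnn1, Lmod1, Myh11, Srf, Mkl1, Mkl2, Actg2, Pecam1, Cdh5 and Egfl7, where 3 reads are worth 1.14 to 2.29 CPM. Other scalings moved the median of all genes by at most 0.06 on the log2 scale.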
